A study of Caenorhabditis elegans with 18 samples.

Results

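LK38 and LK56 are small molecules that raise *cyp-35* genes in *Caenorhabditis elegans*, and the comparison described here set their transcriptional profiles directly against each other. Wild-type N2 young adults, fed on *E. coli* OP50 from the first larval stage, were placed in S Basal with OP50 and exposed for 8 h to 100 µM LK38, to 100 µM LK56, or to the matching volume of DMSO. Dose, time, medium and stage were the same for both compounds, and no pathogen was present. RNA came from pooled whole animals, and 3 Affymetrix arrays (A, B and C) were hybridized per condition, so that 6 of the 18 arrays of the study carry the comparison and the 3 DMSO arrays serve as the reference. The design describes the arrays of a condition as biological replicates without saying how the cultures were separated. The p values given here therefore speak only to the spread among arrays of a condition, which may be technical. That spread was estimated over all 18 arrays, those of the other compounds included, unless a fit of fewer arrays is named.

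The values are GCRMA intensities on a linear scale. Their lowest value, 4.605, is called the floor here. A probe set was called where the Benjamini-Hochberg adjusted p of limma was under 0.05 over all 22548 probe sets tested and the difference was at least 2-fold, and all differences are log2 LK38 minus log2 LK56 unless another pair is named. Where one group lies at the floor on all its arrays the fold is written as "at least", and folds against intensities near the floor rest on values that may not be above background. LK38 array C stood apart in part of the profile. Of the 895 probe sets called between the compounds, 153 had LK38 C more than 1 log2 unit from the mean of LK38 A and B, against 78 for LK38 A and 32 for LK38 B, and 18 to 61 for the LK56 arrays. Values without it are given where they move a result by more than 1.5 times or end a call. Over the 9033 brighter probe sets the median intensity was 436 to 446 on the LK38 arrays, against 545, 466 and 436 on LK56 A, B and C, and the median difference was -0.14.

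Worms meet foreign chemicals with enzymes made mostly in the intestine. Cytochromes P450 oxidize the compound, glutathione S-transferases and UDP-glucuronosyltransferases attach a polar group to it, and ABC transporters export the product. The *cyp-35* subfamily is among the most readily induced P450 groups of the worm and is widely used as a readout of xenobiotic exposure. Immune effectors such as lysozymes, C-type lectins and infection response genes are made largely in the same tissue.

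Between LK38 and LK56, 236 probe sets were higher with LK38 (1.05% of those tested) and 659 were lower (2.92%). These shares are the background for the counts called in each gene group below. In each direction, 44 of the called probe sets differed by at least 8-fold. The preponderance of lower calls depended partly on scaling. Centring each array on the median of its brighter probe sets moved the median of all probe sets by 0.13 and gave 439 higher and 618 lower, and quantile normalization gave 393 and 552. Without LK38 C, 369 were higher and 585 lower. Against DMSO, 355 probe sets were higher (1.57%) and 169 lower (0.75%) with LK38, while 116 were higher (0.514%) and 3 lower (0.0133%) with LK56. The count of 116 became 68 without LK56 A, 58 without LK56 B and 59 without DMSO B, and the count of 3 became 6 without LK56 A, 10 without LK56 C and 1 without LK56 B or DMSO B. Because all 3 comparisons share arrays, the values against DMSO are given beside the direct comparison as levels and are no separate evidence for it.

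**Figure D1:**
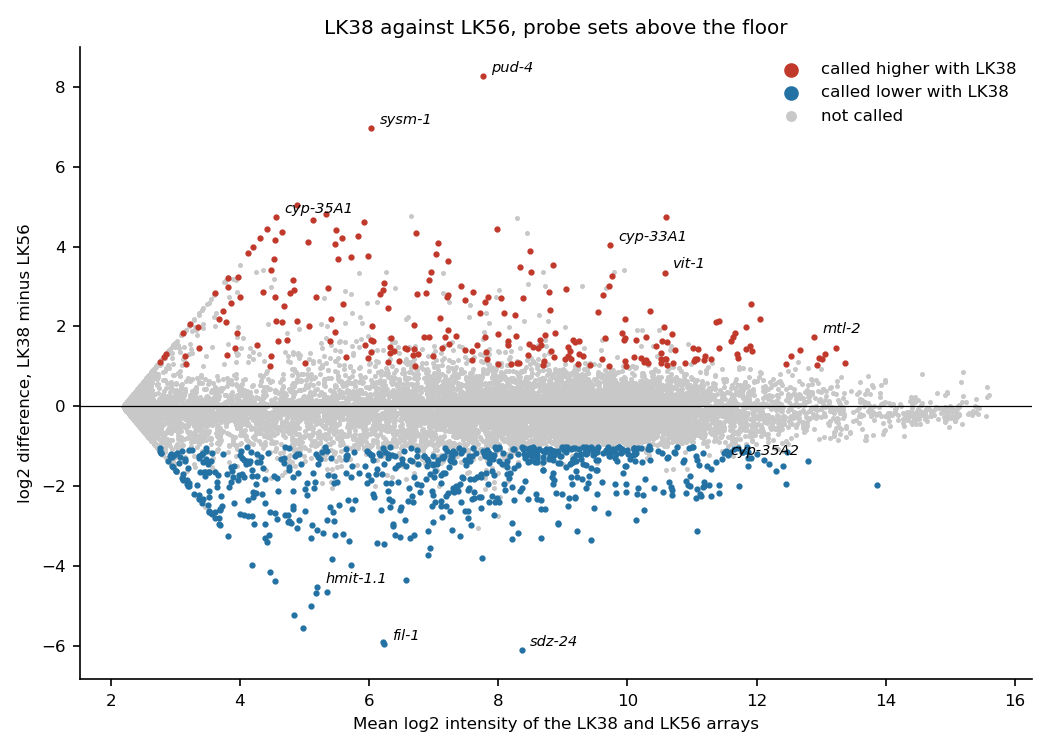
Each point is 1 probe set above the floor on at least 1 of the 9 arrays. The horizontal axis is the mean log2 intensity of the LK38 and LK56 arrays, the vertical axis is log2 LK38 minus log2 LK56, and coloured points are the 236 called higher (red) and the 659 called lower (blue) with LK38, with *pud-4* and *sysm-1* at the top and *sdz-24* and *fil-1* at the bottom.

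The *cyp-35* genes split into 3 patterns. Of 11 probe sets, 4 were called higher with LK38 than with LK56 and 2 lower, with a median of 0.88 against 0.00 over all probe sets tested. Centring the arrays left both counts as they were. Against DMSO, 9 of the 11 were higher with LK38 and 5 with LK56, and none was lower with either.

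*cyp-35A1* (185525_at) was above the floor with LK38 and on no LK56 array. Its intensity was 75.5, 50.3 and 478 on the LK38 arrays, while all 3 LK56 and all 3 DMSO arrays lay at the floor. The level with LK38 was thus at least 26.5-fold that with LK56 (log2 4.73, SE 0.57, adjusted p = 2.5e-04), and array C carried the highest value. Without LK38 C the difference was 3.74, and without LK38 B it was 5.37.

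*cyp-35B1*, *cyp-35B2* and *cyp-35A5* rose more with LK38. For *cyp-35B1* (189366_at) the LK38 arrays read 881, 555 and 296, the LK56 arrays 50.2, 43.7 and 34.2, and the DMSO arrays 5.35, 4.95 and 4.95. Both compounds therefore lay above DMSO, and every LK38 array above every LK56 array, with a 12.4-fold difference (log2 3.64, SE 0.40, adjusted p = 1.4e-04). For *cyp-35B2* (189256_at) the LK38 arrays read 330, 328 and 118 and the LK56 arrays 34.2, 7.53 and 19.3, while DMSO lay at the floor (difference 3.77, SE 0.46, adjusted p = 2.9e-04, or 3.18 without LK56 B). *cyp-35A5* (189394_at) had 75.3, 59.6 and 135 on the LK38 arrays and 13.1, 13.8 and 4.76 on the LK56 arrays, again above a DMSO level at the floor (difference 3.15, SE 0.35, adjusted p = 1.5e-04). The LK56 levels of *cyp-35B2* and *cyp-35A5* were not called above DMSO (adjusted p = 0.0999 and 0.227).

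*cyp-35A2* and *cyp-35A3* ran the other way. *cyp-35A3* (189304_at) gave 217, 231 and 86.8 with LK38, 584, 521 and 463 with LK56 and 7.61, 6.85 and 6.85 with DMSO. All 6 treated arrays were far above DMSO, and LK56 exceeded LK38 3.19-fold (difference -1.67, SE 0.27, adjusted p = 1.8e-03). *cyp-35A2* (189512_at) gave 2064, 1483 and 1846 with LK38, 4352, 4811 and 4176 with LK56 and 129, 63.4 and 99.8 with DMSO. The 2 compounds did not overlap here either, but the call was close to the threshold (difference -1.32, SE 0.36, adjusted p = 0.04). It ended without any 1 of the LK38 or LK56 arrays or without DMSO C, with differences from -1.42 without LK38 A to -1.18 without LK38 B.

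The remaining *cyp-35* probe sets gave no call between the compounds. *cyp-35C1* is measured by a pair of probe sets. In 189283_s_at the LK38 arrays read 1912, 2525 and 7977, the LK56 arrays 1236, 1134 and 1047, and the DMSO arrays 8.85, 8.32 and 7.19. The induction was large with both compounds, and the difference of 1.57 had a 95% interval from 0.18 to 2.96 (adjusted p = 0.183). In 189282_at the values were 425, 602 and 1952 with LK38, 484, 532 and 369 with LK56, and 11.3 with 2 arrays at the floor with DMSO, an overlap between compounds with an interval from -0.65 to 2.25. *cyp-35A4* (189409_at) varied most among replicates, with 108, 88.5 and 22.8 for LK38 and 123, 46.1 and 6.2 for LK56, and its interval of -0.92 to 2.67 covers differences in either direction. *cyp-35B3* and *cyp-35D1* were above the floor on 1 LK38 and on 2 LK56 arrays, where they read 10.8, and 4.99 and 10.3.

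All *cyp-35* genes lie on chromosome V in the RefSeq annotation (WBcel235), and chromosomal neighbours did not share a direction throughout. *cyp-35A5*, *cyp-35B1*, *cyp-35B2* and *cyp-35B3* follow one another with no coding gene between them, and the 3 of them that were called were higher with LK38. *cyp-35A1* and *cyp-35A2* are also direct neighbours, yet *cyp-35A1* was higher and *cyp-35A2* lower with LK38. In a fit of the 6 arrays alone the calls of *cyp-35A1* (adjusted p = 0.11), *cyp-35A5* (0.089), *cyp-35B2* (0.11) and *cyp-35A3* (0.19) ended, while that of *cyp-35B1* did not.

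**Figure D2:**
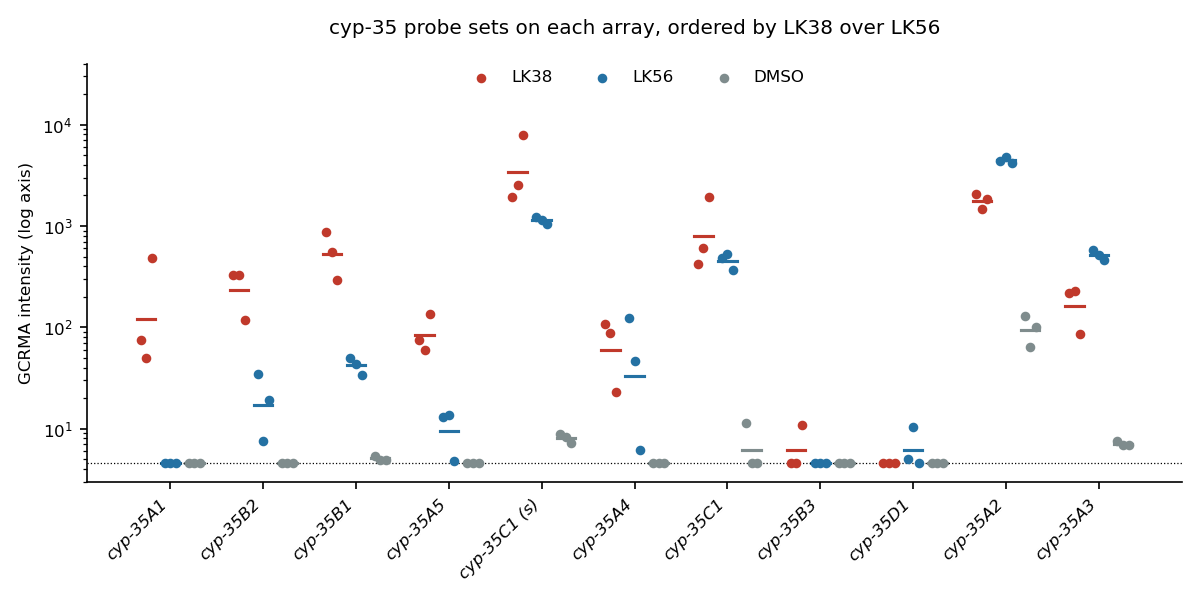
GCRMA intensities (log axis) of the 11 *cyp-35* probe sets on each array, ordered by the difference between compounds, with LK38 in red, LK56 in blue and DMSO in grey. Bars are geometric means of 3 arrays and the dotted line is the floor of 4.605. *cyp-35A1* is above the floor with LK38 alone, while *cyp-35A2* and *cyp-35A3* are highest with LK56.

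Cytochromes P450 outside *cyp-35* gave 3 calls. Of 69 probe sets, 44 were above the floor on at least 1 of the 9 arrays, and the median was 0.00. With LK38, 2 were called higher (2.90%) and 1 lower (1.45%), beside 1.05% and 2.92% of all probe sets. The higher calls numbered 7 with centring and 6 without LK38 C. *cyp-33A1* (189430_at) read 2809, 2320 and 6136 with LK38 against 199, 243 and 188 with LK56 and 186, 219 and 163 with DMSO, a 16.4-fold difference (log2 4.03, SE 0.35, adjusted p = 3.2e-05) in which LK56 and DMSO overlapped. *cyp-14A4* (189218_at) read 95.5, 70.2 and 58.1 with LK38, while all LK56 and DMSO arrays lay at the floor, so the fold was at least 15.9 (adjusted p = 1.9e-09). *cyp-33B1* (189539_at) had the reverse pattern, with 15.4, 13.4 and 9.74 for LK38, 42.6, 50.9 and 34.3 for LK56 and 13.4, 9.74 and 13.4 for DMSO (difference -1.74, SE 0.25, adjusted p = 9.4e-04, or 0.051 in the fit of 6 arrays).

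Glutathione S-transferases leaned toward LK56. Of 46 probe sets (28 above the floor), 7 were lower (15.2%) and 1 was higher (2.17%) with LK38. The shares over all probe sets were 2.92% and 1.05%. The median over those above the floor was -0.95, against -0.08 for all probe sets above the floor. With the arrays centred, 10 were lower and 1 higher. *gst-39* (191337_at) measured 88.8, 76.5 and 47 with LK38, 414, 520 and 720 with LK56 and 57.1, 47 and 53.8 with DMSO. LK38 and DMSO overlapped, and LK56 stood 7.86-fold above LK38 (difference -2.97, SE 0.35, adjusted p = 2.1e-04). *gst-4* (192407_at), a target of the oxidative stress regulator SKN-1 that serves as its common reporter, read 11.1, 14.1 and 16.12 with LK38, 83.5, 48 and 51.5 with LK56 and 16, 6.56 and 16.12 with DMSO. It was 4.34-fold higher with LK56 than with LK38 (difference -2.12, SE 0.43, adjusted p = 8.2e-03), and LK38 did not leave the DMSO range. In the study a GFP reporter driven by the *gst-4* promoter was not activated by LK56, a readout of fluorescence and not of RNA.

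Other transferases rose with both compounds and were higher still with LK56. *gst-6* (192956_at) gave 846, 573 and 224 with LK38, 1982, 2090 and 2292 with LK56 and 95, 39.4 and 92.1 with DMSO (difference -2.15, SE 0.47, adjusted p = 0.0124, or 0.17 in the fit of 6 arrays). *gst-7* (192948_at), chosen after its values were seen, gave 943, 935 and 1181 with LK38, 2536, 2423 and 2396 with LK56 and 540, 454 and 501 with DMSO (difference -1.27, SE 0.15, adjusted p = 2.0e-04). *gst-5* (192820_at) was 2284, 1917 and 1654 with LK38, 4912, 4320 and 3545 with LK56 and 121, 70.1 and 84.3 with DMSO. Its difference of -1.13 (95% interval -1.88 to -0.37) missed the threshold at adjusted p = 0.0681 although the arrays of the compounds did not overlap. *gst-10* (187084_at), which conjugates the lipid peroxidation product 4-hydroxynonenal, was the member in the opposite direction, at 430, 294 and 433 with LK38, 90.9, 58.1 and 35.5 with LK56 and 14.1, 7.41 and 15.4 with DMSO (difference 2.73, SE 0.43, adjusted p = 1.6e-03, or 0.06 in the fit of 6 arrays).

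A list of 13 probe sets of SKN-1 phase II genes, which shares *gst-4*, *gst-7*, *gst-10* and *gst-13* with the transferases, held 4 lower and 1 higher. Its further member *nit-1* (188607_at), a nitrilase, measured 13.9, 9.71 and 9.71 with LK38, 164, 117 and 65.4 with LK56 and 9.71, 13.9 and 9.71 with DMSO. LK38 matched the DMSO range and LK56 lay 9.84-fold above LK38 (difference -3.30, SE 0.42, adjusted p = 3.8e-04). The regulator itself gave no call. Of 3 *skn-1* probe sets, one was at the floor on all 9 arrays, and the differences of the others were 0.18 (interval -0.95 to 1.31) and 2.24 (interval 0.50 to 3.99, adjusted p = 0.122), the second of which was called without LK56 C (3.02).

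Among the remaining detoxification families, single genes separated the compounds in either direction. *pgp-9* (193903_at), a P-glycoprotein efflux pump, was 111, 128 and 104 with LK38 against 6.02, 5.31 and 5.31 with LK56, and with DMSO 1 array read 5.31 and the others lay at the floor (difference 4.36, SE 0.24, adjusted p = 6.5e-07). Of 62 ABC transporter probe sets, 2 were higher (3.23%) and 1 lower (1.61%), beside 1.05% and 2.92% of all probe sets. Without LK38 C the counts were 1 and 0, the higher count was also 1 without LK38 B or LK56 B, and the lower count was 0 without LK56 A or LK56 B and 2 without LK56 C. Of 68 UDP-glucuronosyltransferase probe sets, 3 were higher (6 with centring) and 3 lower (1 without LK38 B, LK56 A, LK56 B or DMSO A). That is 4.41% each way, beside 1.05% higher and 2.92% lower of all probe sets. They included *ugt-41* (190849_at) at 2.74 (SE 0.26, adjusted p = 6.4e-05) and *ugt-47* (191440_at) at -2.57 (SE 0.54, adjusted p = 9.6e-03). The steroid dehydrogenase family genes *stdh-1* and *stdh-2* were called in opposite directions. *stdh-1* (192469_at) read 2354, 2446 and 1899 with LK38, 842, 997 and 1105 with LK56 and 690, 586 and 709 with DMSO (difference 1.19, SE 0.17, adjusted p = 7.5e-04). *stdh-2* (192605_at) lay at the floor on every LK38 array, read 93.4, 111 and 36.4 with LK56 and lay at the floor with DMSO, so it was at least 15.7-fold higher with LK56 than with LK38 (adjusted p = 1.5e-03). Both probe sets of the flavin-containing monooxygenase *fmo-1* were lower with LK38, by -1.61 and -1.59 (SE 0.19 and 0.23, adjusted p = 2.2e-04 and 9.6e-04).

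**Figure D3:**
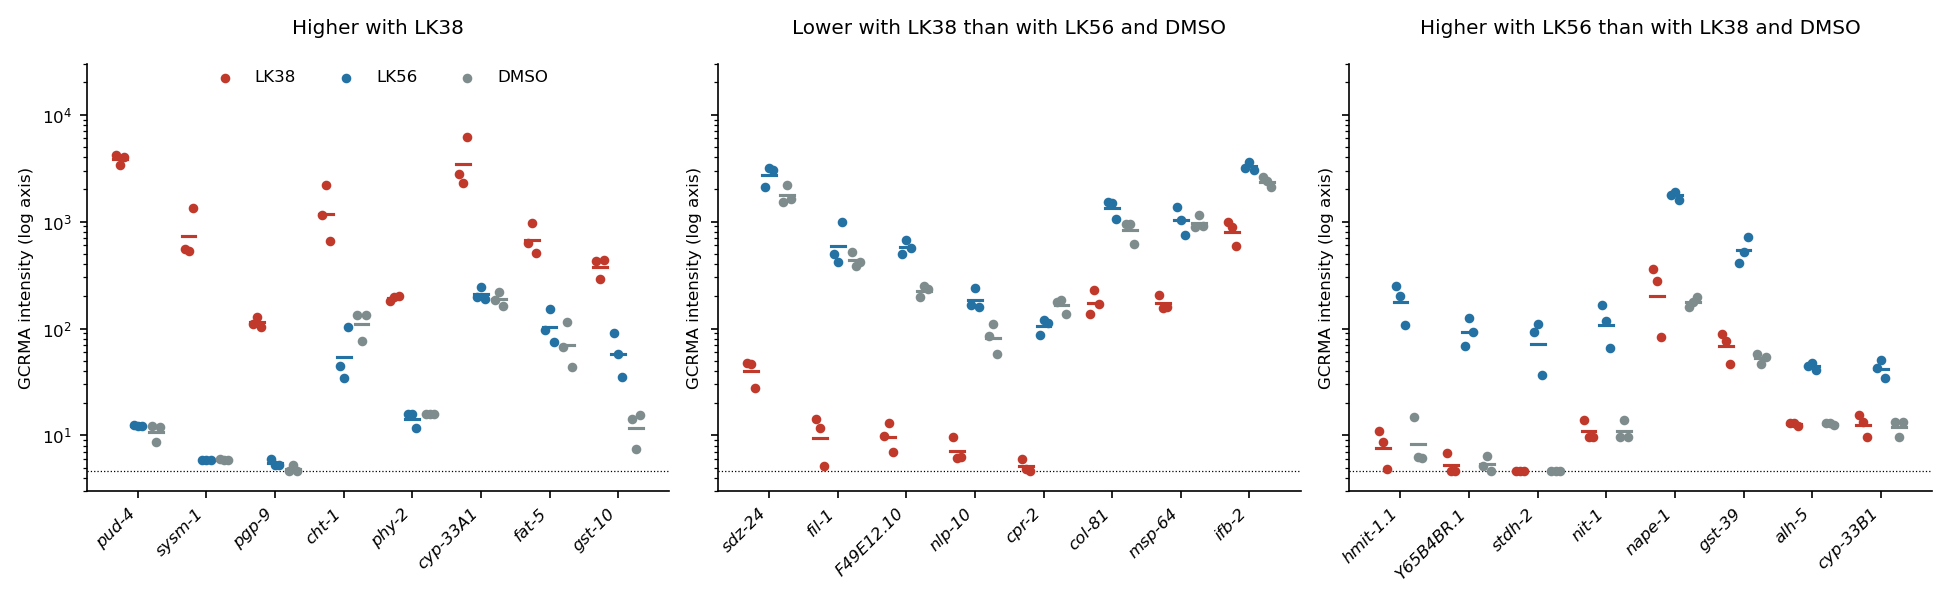
GCRMA intensities (log axis) on each array for 8 probe sets in each of 3 patterns, with LK38 in red, LK56 in blue and DMSO in grey, bars at the geometric mean of 3 arrays and the floor dotted. In the left panel LK38 stands above the rest, in the middle panel LK38 stands below them, and in the right panel LK56 stands above them.

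Immune effectors moved in both directions. *sysm-1* (178297_at), a known target of the PMK-1 p38 pathway, was 551, 531 and 1333 with LK38 and between 5.87 and 5.99 on every LK56 and DMSO array, which makes it one of the sharpest contrasts of the arrays (124-fold, log2 6.96, SE 0.31, adjusted p = 1.7e-07). Of 48 infection response probe sets (32 above the floor), 4 were higher (8.33%) and 5 lower (10.4%) with LK38. The shares over all probe sets were 1.05% and 2.92%. The median was 0.00, or -0.09 over those above the floor, beside -0.08 for all probe sets above the floor. *irg-4* (178843_at) was 593, 464 and 220 with LK38, 79, 48.3 and 48.3 with LK56 and 32.7, 28.6 and 20.1 with DMSO (difference 2.79, SE 0.37, adjusted p = 5.4e-04, or 0.073 in the fit of 6 arrays). *irg-5* (179695_at), whose reporter the study used for the PMK-1 pathway, was 2109, 1832 and 1698 with LK38, 976, 1060 and 652 with LK56 and 168, 105 and 87.8 with DMSO. Both compounds raised it, and with LK38 it was 2.13-fold the level with LK56 (difference 1.09, SE 0.24, adjusted p = 0.0114, or 0.111 in the fit of 6 arrays). The call ended without LK56 C (0.88). *dod-23* was also higher, by 1.63 (SE 0.28, adjusted p = 3.0e-03).

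The lower infection response genes were less stable. *pals-32* (181629_at) differed by -2.49 (SE 0.48, adjusted p = 5.5e-03), whereas *C32H11.4* (180909_at), chosen after its values were seen and raised by both compounds, was 130, 119.1 and 128 with LK38, 373, 495 and 351 with LK56 and 10.3, 10.7 and 18.1 with DMSO (difference -1.68, SE 0.40, adjusted p = 0.0188). The *C32H11.4* call ended without LK38 A (-1.70), LK38 B (-1.64) or LK56 B (-1.53). The list had 3 lower calls without LK38 C, LK56 A, DMSO A or DMSO C and 2 without LK38 B or LK56 B.

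Of 19 lysozyme probe sets 2 were higher (10.5%) and 5 lower (26.3%), beside 1.05% and 2.92% of all probe sets. *lys-2* (183028_s_at) was 8290, 7510 and 6116 with LK38, 1833, 1673 and 2040 with LK56 and 1133, 924 and 1183 with DMSO (difference 1.98, SE 0.20, adjusted p = 1.0e-04). The invertebrate-type lysozyme *ilys-5* was lower in all 3 of its probe sets, by -1.07 to -1.30, of which the weakest ended without LK38 B (-0.91). Among 24 saposin-like probe sets, whose proteins perforate microbial membranes, 1 was higher (4.17%) and 4 lower (16.7%). None was higher without LK38 B, and 2 were lower without LK38 B, LK38 C, LK56 A or LK56 B. *spp-1* (178149_s_at), the founding member, read 3973, 3195 and 2630 with LK38, 8297, 9797 and 9323 with LK56 and 9577, 10167 and 9205 with DMSO (difference -1.50, SE 0.21, adjusted p = 6.4e-04). LK56 and DMSO overlapped while every LK38 array was lower. Of 251 C-type lectin probe sets 97 were above the floor, with 5 higher (1.99%) and 8 lower (3.19%), near the 1.05% and 2.92% of all probe sets. These counts were 10 and 7 with centring, and 7 and 5 without LK38 C. The lower count was also 5 without LK38 B, and the higher count was 1 without LK38 A, 2 without LK38 B, LK56 B or LK56 C and 3 without LK56 A or DMSO C. Of 38 epidermal antimicrobial peptide probe sets 2 were higher, *cnc-4* (1.54) and *fipr-24*. The *cnc-4* call ended without LK38 A (1.36), LK38 B (1.48) or LK56 A (1.30). *fipr-24* (172241_x_at) was 2555, 1736 and 874 with LK38, 92.5, 136 and 195 with LK56 and 9.79, 9.79 and 17.8 with DMSO (difference 3.54, SE 0.44, adjusted p = 3.1e-04, or 0.058 in the fit of 6 arrays).

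The regulators named in the study gave 1 call between the compounds. Of 38 probe sets, 30 were above the floor and 1, for the MAP kinase kinase *sek-1* (192392_at), was called, at -1.01 (SE 0.23, adjusted p = 0.0163). That call ended without LK38 C (-0.83) or LK56 B (-0.89), 2 probe sets of the list were called lower without LK38 A, LK38 B or LK56 C, and the other *sek-1* probe set gave -0.42 (interval -1.24 to 0.40). *pmk-1* (191432_at), the p38 kinase downstream of it, measured 96.4, 135 and 108 with LK38, 206, 108 and 118 with LK56 and 80.8, 72.2 and 93.3 with DMSO, with an interval from -0.89 to 0.29. For *mdt-15*, a Mediator subunit that works with lipid and xenobiotic regulators, the interval was -1.49 to 0.18. Among the 3 *daf-16* probe sets above the floor the widest interval was -0.06 to 2.50, and among the 3 of *atf-7* it was -0.61 to 0.27. *elt-2* (193259_at), the intestinal GATA factor, was 98.7, 98.7 and 75.9 with LK38 against 188, 204 and 144 with LK56 and 114, 98.7 and 98.7 with DMSO. At -0.97 it passed the adjusted p (0.0116) but not the 2-fold limit, and its other probe set gave -0.21. Transcript levels say nothing of kinase activity or nuclear localization.

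Nuclear hormone receptors, a family much enlarged in nematodes that includes regulators of P450 genes, were called in 13 cases. Of 304 probe sets, 151 were above the floor, 13 were lower with LK38 (4.28%, beside 2.92% of all probe sets) and none was higher by limma, while 50 had an unadjusted p under 0.05. *nhr-133* (189999_at) was 34.8, 41.3 and 18.8 with LK38, 206, 245 and 240 with LK56 and 137, 143 and 107 with DMSO (difference -2.94, SE 0.40, adjusted p = 6.3e-04). *nhr-212* (191004_at) lay close to the floor with LK38 and reached 28.5, 17.3 and 22.4 with LK56 (difference -2.21, SE 0.33, adjusted p = 1.2e-03). Without LK38 C, 11 were lower and 2 higher.

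Metallothionein and heat shock genes included more higher than lower calls. *mtl-2*, a metallothionein of the intestine, was called in 2 probe sets, and in the first of these (188487_s_at) it read 13090, 12329 and 16387 with LK38, 4190, 4292 and 4019 with LK56 and 3604, 2677 and 2663 with DMSO (difference 1.73, SE 0.13, adjusted p = 9.7e-06). In all, 4 of 13 metallothionein and cadmium response probe sets were higher (30.8%, beside 1.05% of all probe sets) and none lower by limma. The counts were 5 and 1 with centring, and 1 was lower without LK38 A. An unadjusted p under 0.05 was seen in 6. Of 19 small and cytosolic heat shock probe sets 3 were higher (15.8%, or 2 without LK38 C) and 1 lower (5.26%). The shares over all probe sets were 1.05% and 2.92%. The *hsp-1* call (1.06) ended without LK38 C (0.99). That of the probe set shared by *hsp-16.48* and *hsp-16.49* (3.70) ended without LK38 C (2.47), LK38 A, any LK56 array, DMSO A or DMSO B. *hsp-12.3* (192338_at) was 8261, 6517 and 4260 with LK38, 1257, 1838 and 2166 with LK56 and 688, 1485 and 1667 with DMSO (difference 1.84, SE 0.36, adjusted p = 6.6e-03, or 0.092 in the fit of 6 arrays). *hsp-12.6* (192323_at) ran opposite, at 30.9, 20.9 and 18 with LK38, 190, 190 and 421 with LK56 and 78.3, 88.5 and 259 with DMSO (difference -3.45, SE 0.52, adjusted p = 1.3e-03). The reticulum chaperone *hsp-4* gave an interval of 0.06 to 0.75 and the proteasome gene *rpt-3* one of -0.30 to 0.39. *ctl-2*, a peroxisomal catalase, was lower, at 2552, 2452 and 2218 with LK38, 4888, 6028 and 6778 with LK56 and 2955, 3173 and 3357 with DMSO (difference -1.28, SE 0.11, adjusted p = 2.6e-05).

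Several enzymes of fat and carbon metabolism rose with LK38. Of 16 fatty acid desaturase and synthase probe sets 4 were higher and 1 lower. The lower call, of the acyl-CoA synthetase gene *acs-3*, ended without LK38 C or LK56 B, and the higher count was 2 without LK38 B or LK56 B. *fat-5* (192357_at), a palmitoyl-CoA desaturase, was 632, 968 and 505 with LK38, 96.2, 153 and 75.3 with LK56 and 66.9, 115 and 43.7 with DMSO (difference 2.71, SE 0.39, adjusted p = 9.6e-04, or 0.054 in the fit of 6 arrays), and the stearoyl-CoA desaturase *fat-6* was higher by 1.30 (SE 0.24, adjusted p = 4.6e-03). Of 31 probe sets of glycolysis and gluconeogenesis 3 were higher and 1 lower (2 without LK56 C). The lactate dehydrogenase *ldh-1* (192972_at) was 977, 861 and 833 with LK38, 300, 265 and 194 with LK56 and 203, 145 and 177 with DMSO (difference 1.84, SE 0.24, adjusted p = 4.6e-04). The alcohol dehydrogenase *adh-1* (190978_at) was 3302, 3300 and 2564 with LK38, 1174, 725 and 521 with LK56 and 1723, 3486 and 2908 with DMSO. Here LK38 overlapped DMSO and LK56 lay below both (difference 1.99, SE 0.35, adjusted p = 3.6e-03, or 0.078 in the fit of 6 arrays), and *adh-1* was among the 3 probe sets called lower with LK56 than with DMSO.

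Other metabolic genes were lower with LK38. *fil-1* (188106_at), a fasting-induced lipase, was 14.3, 11.8 and 5.17 with LK38 against 498, 416 and 984 with LK56 and 517, 383 and 416 with DMSO (61.6-fold lower, log2 -5.94, SE 0.43, adjusted p = 6.8e-06). Of 31 probe sets of the methionine cycle and phosphatidylcholine synthesis 4 were lower (3 without LK38 C). The *sams-1* call (-1.72) ended without any 1 of the LK38 arrays (-1.61 without LK38 C), LK56 A or LK56 B. The S-adenosylmethionine synthetase *sams-2* (172620_x_at) read 1360, 1472 and 1263 with LK38, 3715, 3436 and 3223 with LK56 and 2376, 2760 and 2948 with DMSO (difference -1.34, SE 0.09, adjusted p = 3.0e-06), although its near-identical paralogs can share probes. Chosen after their values were seen, *nape-1* and *faah-1* encode a phospholipase D that makes N-acylethanolamines and an amide hydrolase that degrades them. *nape-1* (173786_s_at) was 357, 280 and 83.2 with LK38, 1783, 1891 and 1608 with LK56 and 160, 177 and 199 with DMSO, with LK38 around the DMSO range (difference -3.12, SE 0.52, adjusted p = 2.3e-03, or -2.47 without LK38 C and adjusted p = 0.105 in the fit of 6 arrays). *faah-1* (188358_at) was 142, 127 and 64.7 with LK38, 918, 1067 and 881 with LK56 and 716, 539 and 469 with DMSO, where LK38 was the group that stood apart (difference -3.18, SE 0.59, adjusted p = 4.7e-03).

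*hmit-1.1* (192059_at), a proton-coupled myo-inositol transporter known from the osmotic stress response, stood above DMSO with LK56 and overlapped it with LK38. It measured 11, 8.65 and 4.81 with LK38, 251, 201 and 108 with LK56 and 14.8, 6.27 and 6.11 with DMSO (22.8-fold lower with LK38 than with LK56, log2 -4.51, SE 0.66, adjusted p = 1.0e-03). Its paralogs were looked at after these values were seen. *hmit-1.3* gave an interval of -1.26 to 0.01, and *hmit-1.2* lay at the floor on all 9 arrays. *Y65B4BR.1* (189299_at) followed the pattern of *hmit-1.1*, with 6.82 and 4.67 on LK38 A and B, LK38 C at the floor, 68.1, 126 and 93.3 for LK56 and 5.16, 6.49 and 4.68 for DMSO (difference -4.14, SE 0.30, adjusted p = 6.8e-06).

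Major sperm proteins, the cytoskeletal proteins of nematode sperm, had the most uniform difference of the groups examined. Of 31 probe sets 30 were lower with LK38 than with LK56 (96.8%), with a median of -2.15 against 0.00 over all probe sets, and the remaining one, a second *msp-32* probe set, was at the floor on all 9 arrays. Centring the arrays or leaving out LK38 C gave 29. The genes of this family are nearly identical and share probes, so the probe sets are not separate measurements. *msp-64* (172887_x_at) was 207, 156 and 160 with LK38, 1371, 1044 and 755 with LK56 and 894, 1149 and 904 with DMSO (difference -2.57, SE 0.19, adjusted p = 6.8e-06). LK56 overlapped DMSO, and LK38 lay below both. The intensities of the list summed to 18132 to 27327 with LK38, 67644 to 125095 with LK56 and 81833 to 96176 with DMSO. Against DMSO, 29 of the 31 were lower with LK38 and none was called with LK56, where the median was 0.07 and -2.04 with LK38. In RNA of whole animals, fewer sperm or spermatocytes and less RNA per cell cannot be told apart.

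Other germline groups did not all follow. Of 89 further sperm probe sets, 58 above the floor, 12 were lower (13.5%, beside 2.92% of all probe sets). Most of them were of the *nspd*, *ssq* and *ssp* families. The summed intensity of the list was 39555 to 64838 with LK38, 43333 to 47499 with LK56 and 34330 to 35532 with DMSO. Histones, whose genes also share probes, were lower in 14 of 65 probe sets (21.5%, beside 2.92% of all probe sets), or 9 with centring. None was higher by limma, and 37 had an unadjusted p under 0.05 in either direction. Without LK38 C, 11 were lower and 3 higher. *his-62* (172702_x_at) was 207, 263 and 239 with LK38, 574, 655 and 598 with LK56 and 449, 446 and 548 with DMSO (difference -1.37, SE 0.25, adjusted p = 4.6e-03). In contrast, all 10 vitellogenin probe sets, for the yolk protein genes, had positive differences, from 0.02 to 3.35, and 2 were called. All 10 were positive under centring and quantile normalization too. Several measure the same gene, such as *vit-4*, or are shared by *vit-4* and *vit-5*, so the 10 are not all separate measurements. *vit-1* (177065_at) was 2570, 3428 and 13177 with LK38, 562, 397 and 491 with LK56 and 596, 547 and 532 with DMSO (difference 3.35, SE 0.58, adjusted p = 3.1e-03, 2.63 without LK38 C and adjusted p = 0.12 in the fit of 6 arrays). The *vit-4* call (1.42) ended without LK38 A (1.31) or LK56 A (1.14). Of 60 oocyte and eggshell probe sets 46 had a positive difference and 10 a negative one, with a median of 0.32, and 1 was called (5 with centring, 3 without LK38 C, 4 without LK38 A and 6 without LK56 A), the maternal zinc finger gene *mex-5* (193943_at) at 697, 932 and 1142 with LK38, 424, 347 and 229 with LK56 and 363, 394 and 429 with DMSO (difference 1.49, SE 0.23, adjusted p = 1.4e-03, or 0.12 in the fit of 6 arrays).

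Neuropeptide and insulin-like peptide genes were lower with LK38 in 16 of 112 probe sets (14.3%) and higher in 1 (0.89%). The shares over all probe sets were 2.92% and 1.05%, and 71 of the 112 were above the floor. With centring the counts were 17 and 3, and without LK38 C 13 and 4. *nlp-10* (188068_at) was 9.68, 6.18 and 6.23 with LK38, 165, 240 and 157 with LK56 and 84.9, 110 and 58.2 with DMSO, so that LK38 lay below DMSO and LK56 above it without overlap (difference -4.68, SE 0.23, adjusted p = 3.2e-07). The FMRFamide-like gene *flp-15* (172214_x_at) had the same order, at 56.1, 37 and 22.5 with LK38, 340, 397 and 548 with LK56 and 144, 99.8 and 140 with DMSO (difference -3.54, SE 0.35, adjusted p = 7.7e-05), and its second probe set differed by -2.04. *nlp-12* (173242_s_at), chosen after its values were seen, encodes a cholecystokinin-like peptide and was 31.5, 31.5 and 25.6 with LK38, 203, 286 and 221 with LK56 and 121, 86.2 and 144 with DMSO (difference -2.99, SE 0.31, adjusted p = 1.0e-04). The exception was *flp-6* (192719_s_at) at 819, 581 and 305 with LK38, 72.6, 71.2 and 74.7 with LK56 and 61.7, 44.1 and 56.4 with DMSO (difference 2.85, SE 0.41, adjusted p = 8.8e-04, or 0.051 in the fit of 6 arrays). None of 24 probe sets of general neuronal markers was called (1 lower without LK56 C), and 5 had an unadjusted p under 0.05. These markers summed to 6615 to 7997 with LK38, 5930 to 6454 with LK56 and 5572 to 6047 with DMSO, with *snt-1*, *sng-1*, *unc-25*, *unc-47* and *rgef-1* at the floor on all 9 arrays. Of the markers above the floor, however, 10 had a negative difference and 3 a positive one. Their median was -0.25, beside -0.30 for the peptide probe sets above the floor. The part of neuronal RNA content in the peptide result was not tested.

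**Figure D4:**
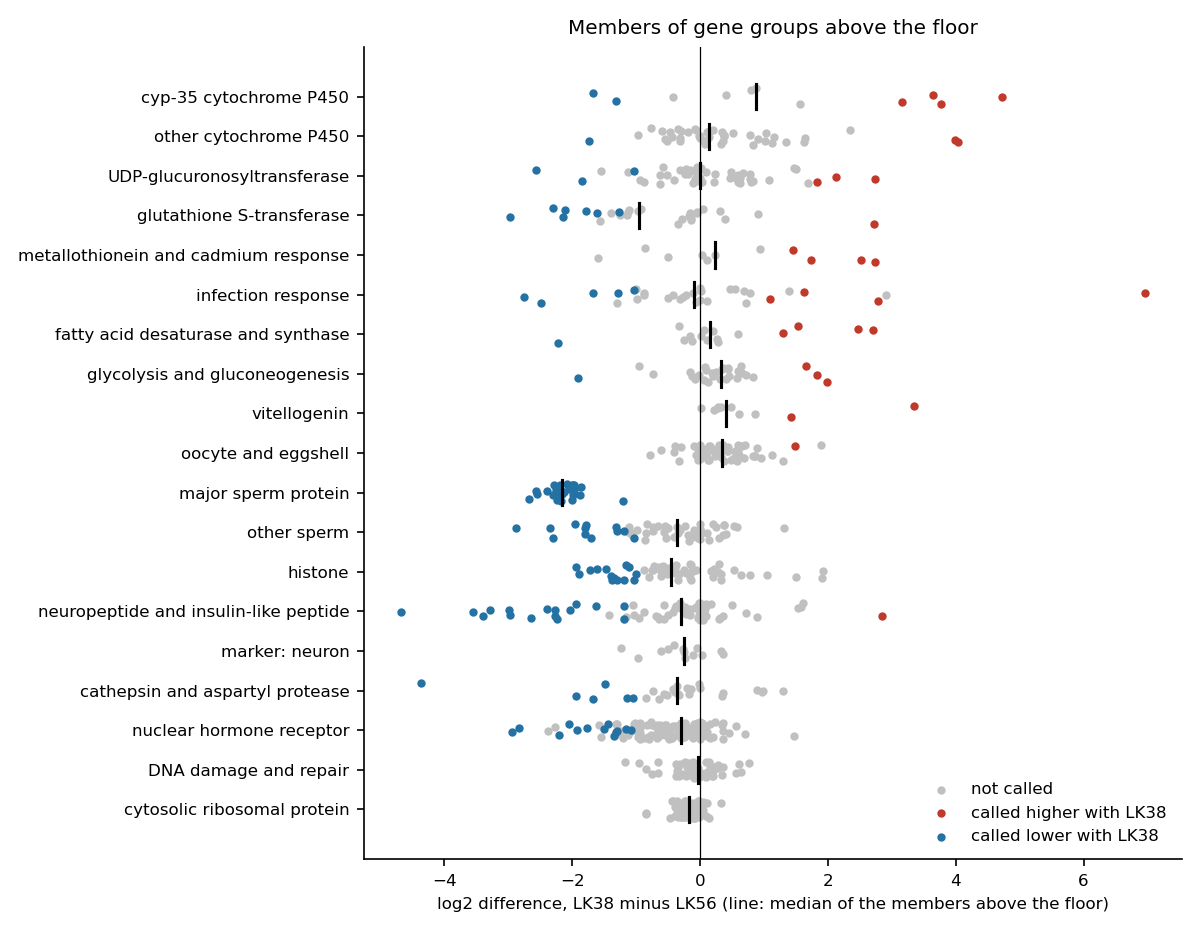
Log2 difference, LK38 minus LK56, of each probe set above the floor in 19 gene groups, with called members in red (higher with LK38) and blue (lower) and a black line at the median of the members shown. The major sperm proteins lie together near their median of -2.16, the *cyp-35* group extends to both sides, and the DNA repair and ribosomal protein groups hold no called member.

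Intestinal genes changed in both directions. Of 13 probe sets of intestinal markers 3 were higher with LK38 (*act-5* and 2 of *mtl-2*) and 3 lower (*elt-7*, *ifb-2* and *pept-1*), and their sum was 79349 to 83912 with LK38, 65608 to 69785 with LK56 and 55704 to 63015 with DMSO. *pept-1* (193068_at), the intestinal oligopeptide transporter, was 16.8, 20.2 and 12.5 with LK38, 282, 155 and 105 with LK56 and 82.1, 28.4 and 48.9 with DMSO (difference -3.36, SE 0.40, adjusted p = 2.4e-04). *ifb-2* (192118_s_at), an intermediate filament of the intestinal terminal web, was 987, 896 and 592 with LK38, 3197, 3624 and 3067 with LK56 and 2636, 2383 and 2086 with DMSO (difference -2.03, SE 0.22, adjusted p = 1.3e-04). The *act-5* call (1.14) ended without LK38 A (0.94), LK56 A (1.11) or LK56 B (1.13). Cathepsin and aspartyl proteases were lower in 6 of 31 probe sets (19.4%, beside 2.92% of all probe sets). None was higher by limma, and 18 had an unadjusted p under 0.05. Without LK38 C, 3 were lower and 2 higher, and 3 were lower without LK56 A and 2 without LK56 B. Leaving out LK38 B, LK56 B or LK56 C gave 1 higher call. *cpr-2* (189469_at), a cathepsin B-like protease, was 6.06, 4.82 and 4.69 with LK38, 87.4, 120 and 113 with LK56 and 177, 183 and 137 with DMSO (difference -4.36, SE 0.23, adjusted p = 4.4e-07).

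Of 25 probe sets of body wall muscle markers, 17 above the floor, none was called, though all 16 that differed from 0 had a negative difference. With quantile normalization 15 of 16 were negative. With centring 14 of the 17 above the floor were negative, while probe sets at the floor throughout are moved to 0.13 by the centring itself. Without LK38 A 3 were called lower, and 8 had an unadjusted p under 0.05. The sums were 40607 to 65564 with LK38, 75688 to 81888 with LK56 and 58302 to 63393 with DMSO. No epidermal or pharyngeal marker was called, with 1 of 14 and 0 of 19 at an unadjusted p under 0.05. Only 10 of the 19 pharyngeal probe sets were above the floor. Their list summed to 218 to 281 with LK38 and 251 to 354 with LK56, so its lack of calls says little. Cuticle collagens were called in 10 of 181 probe sets, 3 higher (1.66%) and 7 lower (3.87%), near the 1.05% and 2.92% of all probe sets. The counts were 6 and 6 with centring and 5 and 5 without LK38 C, and 4 were lower without LK56 B. *col-101* (189812_s_at) was 2718, 2786 and 3494 with LK38, 599, 654 and 466 with LK56 and 443, 482 and 312 with DMSO (difference 2.39, SE 0.17, adjusted p = 4.8e-06), and *col-129* (173632_s_at) was 430, 459 and 368 with LK38, 3045, 3054 and 2943 with LK56 and 2066, 1980 and 1981 with DMSO (difference -2.85, SE 0.15, adjusted p = 4.1e-07). *phy-2* (193464_s_at), chosen after its values were seen, encodes a collagen prolyl 4-hydroxylase subunit and was 179, 198 and 200 with LK38, 15.9, 15.9 and 11.8 with LK56 and 15.9, 15.9 and 16 with DMSO (difference 3.74, SE 0.22, adjusted p = 1.0e-06).

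The widest differences of all included genes outside these families. *pud-4* (186519_at), named as a protein upregulated in *daf-2* insulin receptor mutants, was 4156, 3347 and 4015 with LK38, 12.5, 12.2 and 12.3 with LK56 and 12.2, 8.61 and 11.9 with DMSO, a 309-fold difference (log2 8.27, SE 0.41, adjusted p = 3.2e-07). *cht-1* (171912_x_at), a chitinase, was 1143, 2201 and 651 with LK38, 44.9, 34.5 and 104 with LK56 and 133, 76.6 and 133 with DMSO (difference 4.44, SE 0.55, adjusted p = 3.0e-04, or 0.059 in the fit of 6 arrays). The acyltransferase homolog *oac-6* (182733_at) was 176, 123 and 45.1 with LK38 and at the floor on all LK56 and DMSO arrays, at least 21.6-fold (adjusted p = 3.0e-04). In the other direction *sdz-24* (180256_at) was 47.8, 47 and 27.7 with LK38, 2103, 3195 and 3009 with LK56 and 1527, 2210 and 1638 with DMSO (68.7-fold lower, log2 -6.10, SE 0.62, adjusted p = 9.2e-05). *F49E12.10* (190009_at) was 9.81, 13.2 and 6.99 with LK38, 502, 679 and 560 with LK56 and 198, 249 and 234 with DMSO (difference -5.90, SE 0.31, adjusted p = 4.1e-07). LK56 and DMSO overlapped in *pud-4* and were both at the floor in *oac-6*, and in *sdz-24* and *F49E12.10* every LK38 array lay below every DMSO array.

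The 12 widest differences in each direction included further genes whose roles are not given here. *D1086.3* (177920_at) was 380, 182 and 69.7 with LK38, 6.01 and 4.93 on LK56 A and B with LK56 C at the floor, and 4.93 on all DMSO arrays (difference 5.03, SE 0.60, adjusted p = 2.4e-04, or 5.67 without LK38 C). *F48G7.10* (184636_at) was 37.6, 40.2 and 6.31 with LK38, 372, 499 and 433 with LK56 and 140, 172 and 219 with DMSO, each group apart from the next (difference -4.35, SE 0.57, adjusted p = 4.9e-04, -3.47 without LK38 C and adjusted p = 0.0977 in the fit of 6 arrays). *F22B5.4* (4.61) and *Y38E10A.14* (4.26) were called higher, and *F49F1.5* (-5.22), *dlhd-1* (-4.99), *svct-1* (-4.65) and *F13B6.3* (-3.97) lower, and these calls held with each array left out. *W04A8.4* (4.82), *T09B4.5* (4.33) and *C35E7.5* (4.22) had their lowest LK38 value on array C, and without that array the differences were 5.63, 5.48 and 5.05. All 3 calls ended without LK38 A (4.38, 3.60 and 3.95), LK38 B (4.46, 3.92 and 3.68) or LK56 B (4.68, 4.47 and 4.07), and that of *T09B4.5* also without LK56 A (4.47), LK56 C (4.05) or DMSO A (4.33).

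Responses that the compounds share can be read from genes whose difference was bounded. By calls against the same DMSO arrays, 47 probe sets were higher with both compounds. Between LK38 and LK56, 10 of them were called higher and 5 lower, beside 1.05% and 2.92% of all probe sets. Another 8 had a 95% interval within 1 log2 unit of 0, and for the other 24 the interval reached past 1 unit without a call. Such a bounded interval is not particular to these 8, since 8579 of the 13642 probe sets above the floor had one. *far-3* (193272_s_at), a fatty acid and retinol binding protein gene, belonged to the first set, at 2304, 1991 and 2103 with LK38, 488, 464 and 464 with LK56 and 42, 43.3 and 27.9 with DMSO (difference 2.17, SE 0.29, adjusted p = 5.2e-04).

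Among the 8 with a bounded difference, *dhs-2* (189280_at), a short-chain dehydrogenase, was 1243, 983 and 908 with LK38, 1018, 1011 and 1028 with LK56 and 298, 231 and 289 with DMSO (difference 0.02, interval -0.33 to 0.38). *cdr-6* (191875_at), of the cadmium-responsive family, was 1136, 1047 and 903 with LK38, 1061, 933 and 1032 with LK56 and 418, 224 and 417 with DMSO (difference 0.02, interval -0.53 to 0.58). *swt-7* (185210_s_at), a sugar transporter of the SWEET family, was 211, 225 and 209 with LK38, 224, 225 and 165 with LK56 and 42.3, 54.3 and 47.3 with DMSO (difference 0.09, interval -0.44 to 0.61). *tps-2*, a trehalose 6-phosphate synthase gene, gave an interval of -0.28 to 0.73, and *T16G1.7*, whose intensity was 16.2-fold that of DMSO with LK38 and 18.1-fold with LK56, one of -0.98 to 0.66. In each of these genes the arrays of the compounds overlapped.

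**Figure D5:**
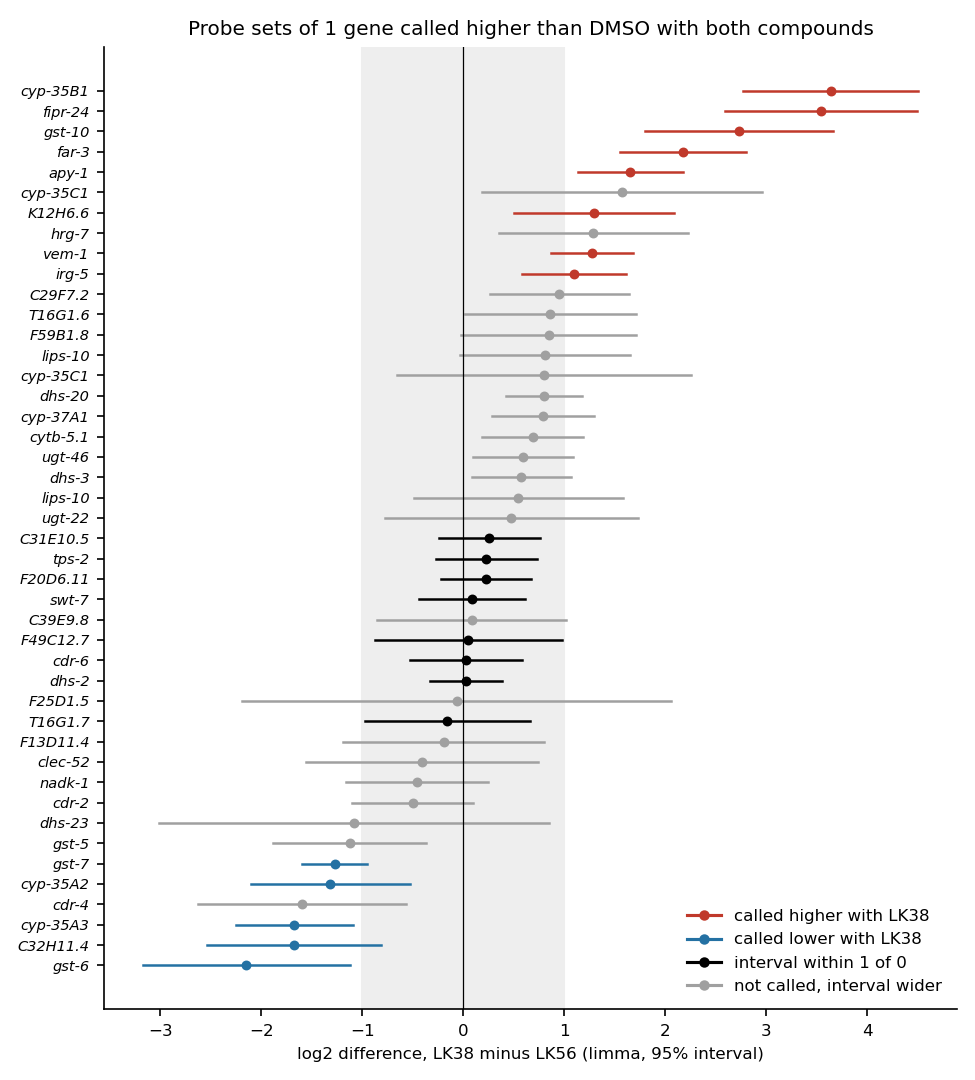
Difference between LK38 and LK56 (limma, 95% interval) for each probe set of 1 gene that was called higher than DMSO with both compounds. The grey band marks 1 log2 unit on either side of 0, red and blue are called higher and lower with LK38, and black intervals lie within the band. *cyp-35B1* stands at the top at 3.64 and *gst-6* at the bottom at -2.15.

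Groups of general cell function gave few calls. None of 64 DNA damage and repair probe sets and none of 105 cytosolic ribosomal protein probe sets was called by limma, with 12 and 59 at an unadjusted p under 0.05 and medians of -0.02 and -0.17. Both probe sets of the DNA alkyltransferase genes were measured well above the floor. *agt-1* (185698_at) was 729, 811 and 753 with LK38, 1218, 1099 and 1290 with LK56 and 834, 780 and 891 with DMSO. Its difference of -0.65 (interval -0.97 to -0.33, adjusted p = 0.0147) passed the adjusted p but not the 2-fold limit, while *agt-2* gave an interval of -0.21 to 0.57. A DNA repair probe set was called lower without LK38 C or LK56 C and one higher without LK56 A. Of 39 proteasome subunit probe sets 2 were lower, or 1 without LK38 A or LK56 A, and 1 was higher without LK56 A.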

How the data were processed

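RNA of 18 arrays, 3 for each of 5 LK compounds and for DMSO, was labelled with biotin by the standard Affymetrix protocol. The deposited intensity values are linear and, per the submitters' processing notes, the authors made them with GCRMA, which corrects background and normalizes the arrays to one another. The deposited values still differ between arrays, with medians of the brighter probe sets from 357 (LK35 A) to 545 (LK56 A). A shift shared by every transcript cannot be read from such values. The GCRMA version and settings are not given in the sources used here. Of 22625 probe sets 77 controls were left out. Platform annotation assigned 1 gene to 20810 of the rest, several to 843 and none to 895, and 20745 matched RefSeq (WBcel235). On every array 8162 probe sets lay at the floor (within 0.1%), and 13642 rose above it on at least 1 of the 9 LK38, LK56 and DMSO arrays.

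With no offset added, log2 intensities entered limma (version 3.58.1, R 4.3.3; two-sided moderated tests). Each of the 6 groups had a mean of its own, all 18 arrays shared the variance estimate (12 residual and 0.332 prior degrees of freedom), and p-values were adjusted over all probe sets and not over lists. Folds are ratios of geometric means. The gene lists, defined by symbol, and the members described were chosen with earlier results of these data known. Members named were the 12 widest non-overlapping differences in each direction, up to 4 called members of a list, all *cyp-35* genes, genes raised by both compounds with an interval within 1, and genes the study names. Others are marked as chosen after their values were seen. Alternatives were 2 other scalings (quantile, centring on the brighter probe sets), an offset of 16, dropping dim probe sets, fewer arrays, other call rules, array weights, a block for the replicate letter and the omission of each array. The fit was tested on simulated data. Figures come from matplotlib 3.10.9 (Python 3.11.15). Having 3 arrays a group limits the precision.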

Additional observations from a re-analysis of the deposited data

How the results depend on the processing

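No named difference that was called, in the main fit or in the alternative, reversed under an alternative. Changes of sign in differences that were not called, such as those near 0, were not counted. Of 142 named probe sets called between LK38 and LK56, 103 stayed called with each array left out in turn. The calls that ended numbered 71 in a fit of the 6 LK38 and LK56 arrays, 27 in a fit of 9 arrays with DMSO, 63 in a test against 1.5-fold, 12 with the offset of 16, and 3 to 6 with quantile normalization, centring, array weights or the replicate block. The fits of fewer arrays have fewer residual degrees of freedom.

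Counts of probe sets moved further. Those higher with LK38 than with LK56 (236) became 78 with 6 arrays, 393 with quantile normalization, 439 with centring, 444 with no fold limit, 86 against 1.5-fold, 594 with array weights (whose fit did not fully converge), and 107 without probe sets of several transcripts. Those lower (659) became 308 with 6 arrays, 1546 with no fold limit, 218 against 1.5-fold, and 382 without probe sets of several transcripts. Relative to DMSO, LK38 gave 220 higher with 9 arrays, 160 against 1.5-fold, 852 with array weights and 158 without probe sets of several transcripts, and its lower count (169) became 265 with quantile normalization, 277 with centring, 357 with no fold limit, 76 against 1.5-fold, 334 with array weights and 58 without probe sets of several transcripts. LK56 gave 67 higher than DMSO with 9 arrays, 74 with quantile normalization, 39 against 1.5-fold, 279 with array weights and 66 without probe sets of several transcripts, and its lower count (3) became 0 with 9 arrays, 6 with quantile normalization or centring, 5 among brighter probe sets or with no fold limit, 0 against 1.5-fold and 33 with array weights. Leaving out each array in turn gave 173 to 369 higher and 496 to 722 lower with LK38 than with LK56, 242 to 514 higher and 124 to 166 lower with LK38 than with DMSO, and 58 to 171 higher and 1 to 10 lower with LK56 than with DMSO. Causes were not tested.

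The replicate letters did not pair the LK38 with the LK56 arrays throughout. Deviations of same-letter LK38 and LK56 arrays correlated at -0.28, 0.16 and -0.20. Each LK56 array correlated best with the DMSO array of its own letter (0.07, 0.21 and 0.14), with other-letter pairs from -0.22 to 0.04. For LK38 with DMSO the same-letter values were 0.08, 0.09 and -0.03, and only LK38 B was highest with its own letter. Whether the letters mark shared batches was not tested. With a replicate block the counts were 223 higher and 640 lower with LK38 than with LK56, 316 and 158 against DMSO with LK38, and 92 and 3 with LK56.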

Other observations

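A pair of probe sets with no gene in the platform annotation were among the widest differences. The probe set 176851_at was 7460, 8458 and 8292 with LK38, 365, 202 and 365 with LK56 and 130, 120 and 114 with DMSO (limma, log2 difference 4.75, SE 0.27, adjusted p = 7.4e-07). The probe set 176271_at was 163, 131 and 281 with LK38, 10.9, 10.8 and 10.8 with LK56 and 16.3, 38.1 and 13.4 with DMSO (log2 difference 4.06). In both, every LK38 array lay above every LK56 and DMSO array.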
